A study of Rattus norvegicus with 15 samples.

Results

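The beta subunits of the sodium pump were followed in the retina of adult Long-Evans rats through the genes Atp1b1, Atp1b2 and Atp1b3. Every probe set that the array's annotation tied to exactly 1 gene symbol, with that symbol among the 3 genes, was taken, which gave 5 probe sets of the 31042 tested. Atp1b1 was measured by 1367814_at and 1386937_at, Atp1b2 by 1369798_at and 1379906_at, and Atp1b3 by 1398300_at. Where a gene had a pair of probe sets, the one of higher mean signal over all arrays is called the brighter and the other the dimmer. Brightness depends on the probes of a set as well as on the transcript, so these names identify the sets and do not rank amounts of RNA. For Atp1b1 the dimmer set was 1367814_at and the brighter 1386937_at, and for Atp1b2 the dimmer was 1369798_at and the brighter 1379906_at.

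The sodium pump moves sodium out of the cell and potassium into it at the cost of ATP. Its catalytic alpha subunit needs a beta subunit, a glycoprotein, to fold and to reach the plasma membrane, and small FXYD proteins tune the assembled pump. In the retina the pump of the photoreceptor inner segment removes the sodium that enters the outer segment in darkness, and pumps of neurons and Müller glia clear ions after activity. The beta2 protein encoded by Atp1b2 was first described in mouse as the adhesion molecule on glia, so it has a role in cell contact besides its role in transport.

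Retinal RNA was hybridised to 15 Affymetrix RAT230_2 arrays, 3 replicas in each of 5 conditions, and all rats had been kept in darkness overnight. The control, 0 ZT dark, was collected at the end of that night. The 3 ZT dark and 6 ZT dark retinas came from rats left in darkness for 3 and 6 hours more, and rats exposed to 1000 lux of light for the same 3 or 6 hours gave the 3 ZT light and 6 ZT light retinas. The titles and the treatment protocol give 6 hours of light for 6 ZT light, whereas its source labels give 3, and the former duration was used. The labels do not say whether a replica was 1 animal or a pool, so a p-value reflects the scatter of these arrays alone, and that scatter could be technical. In whole retina, fewer cells of a type and less RNA per cell cannot be told apart.

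Values are log2 signals from the Robust Multi-array Average (RMA), so a difference of 1 is a doubling. The replica numbers did not share a common level, since the median over all probe sets was 8.28 to 8.32 in replica 1, 8.58 to 8.68 in replica 2 and 8.74 to 8.80 in replica 3, and arrays were therefore compared within a replica number. Of 10 rod markers 7 had a probe set, and their mean lay between 14.72 and 14.95 in all arrays. A pair of arrays stood apart in the Actb control probe sets, whose difference between the 3′ and the 5′ end of the transcript is a sign of RNA quality. This difference was 2.40 in 3 ZT light replica 2 and 2.10 in 0 ZT dark replica 1, against 0.708 to 1.37 in the other 13 arrays, and the main results are given with and without them. The fit was also run with the Actb difference as a covariate, and both of these alternatives were chosen after the data were seen.

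The genes lie on different chromosomes. In the rat assembly GRCr8, Atp1b1 spans chr13:79319708-79340226, Atp1b2 chr10:54817473-54823708 and Atp1b3 chr8:105789824-105821151. The 250 bases before the annotated starts of Atp1b2 and Atp1b3 are shown, because these members had an entry in the promoter table used here. The sequences were taken from RefSeq, run 5′ to 3′ on the strand of the gene, the minus strand in both cases, and end at the base before the start. Capitals mark GGGCGG, the GC box (on either strand), and TATAAA, the TATA box. The windows are chr10:54823709-54823958 and chr8:105821152-105821401.
Atp1b2: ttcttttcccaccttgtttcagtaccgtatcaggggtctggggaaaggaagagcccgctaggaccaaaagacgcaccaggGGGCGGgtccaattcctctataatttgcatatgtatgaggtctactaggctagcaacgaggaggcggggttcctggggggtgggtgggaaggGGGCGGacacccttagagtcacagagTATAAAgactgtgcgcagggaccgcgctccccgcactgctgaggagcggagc
Atp1b3: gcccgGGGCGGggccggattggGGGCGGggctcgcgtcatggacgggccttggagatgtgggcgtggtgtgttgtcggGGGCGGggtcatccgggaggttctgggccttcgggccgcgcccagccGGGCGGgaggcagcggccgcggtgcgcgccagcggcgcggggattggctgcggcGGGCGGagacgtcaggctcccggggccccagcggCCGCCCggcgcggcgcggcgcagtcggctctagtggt
In the Atp1b2 window 58.0% of the bases were G or C, with GC boxes 170 and 78 bases before the start and a TATA box 52 bases before it. The Atp1b3 window was richer, at 79.6%, with 6 GC boxes and no TATAAA. Over 33469 rat promoter windows of the same length, GGGCGG occurred in 30.5% and TATAAA in 12.9%, both strands counted. The core element bound by the thyroid hormone receptor, AGGTCA, was searched because thyroid hormone is known to regulate sodium pump genes, and was found in 14.1% of all windows and in neither of these. A pair of copies of AGGTCA in the same direction with 4 bases between them, known as DR4, occurred in 0.00299% of the windows (1 of 33469). The paper that reported these data found the exact DR4 sequence in the Atp1b2 promoter, in a promoter sequence from another source whose length it does not give. The lack of a match here says only that these letters were not in these windows of 250 bases. These matches describe letters in a window and no binding was measured.

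The probe set that differed most between conditions was the dimmer one of Atp1b2. It was about 2-fold brighter in both 6 ZT conditions than in the control, whether the rats had been in light or in darkness, and near the control level at 3 ZT in both. None of the other 4 member probe sets had a mean ratio to control above 1.31. No member passed an adjusted p of 0.05 in any comparison of the limma fit, including 3 ZT dark against 0 ZT dark, where 0.0% of all probe sets passed and 1.25% had an unadjusted p below 0.05.

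For the Atp1b2 dimmer set, the 0 ZT dark arrays read 9.68, 10.83 and 11.02 in replicas 1, 2 and 3. The 3 ZT dark arrays read 9.87, 10.64 and 10.94, and the 3 ZT light arrays 10.27, 9.38 and 11.55. The 6 ZT dark arrays read 10.90, 11.75 and 12.38, and the 6 ZT light arrays 11.62, 11.64 and 12.04. Within each replica number both 6 ZT arrays lay above all 3 earlier arrays, which held for 0.902% of all probe sets (280 of 31042), while the opposite order held for 0.0741%. Across replica numbers the values overlapped, since 6 ZT dark replica 1 was below 3 ZT light replica 3. The condition means were 10.51 ± 0.723 in 0 ZT dark, 10.48 ± 0.548 in 3 ZT dark, 10.40 ± 1.09 in 3 ZT light, 11.68 ± 0.744 in 6 ZT dark and 11.77 ± 0.236 in 6 ZT light (SD, n = 3). The spread was widest in 3 ZT light, whose replica 2 was the lowest of the 15 arrays and one of the pair that stood apart in Actb.

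**Figure D1:**
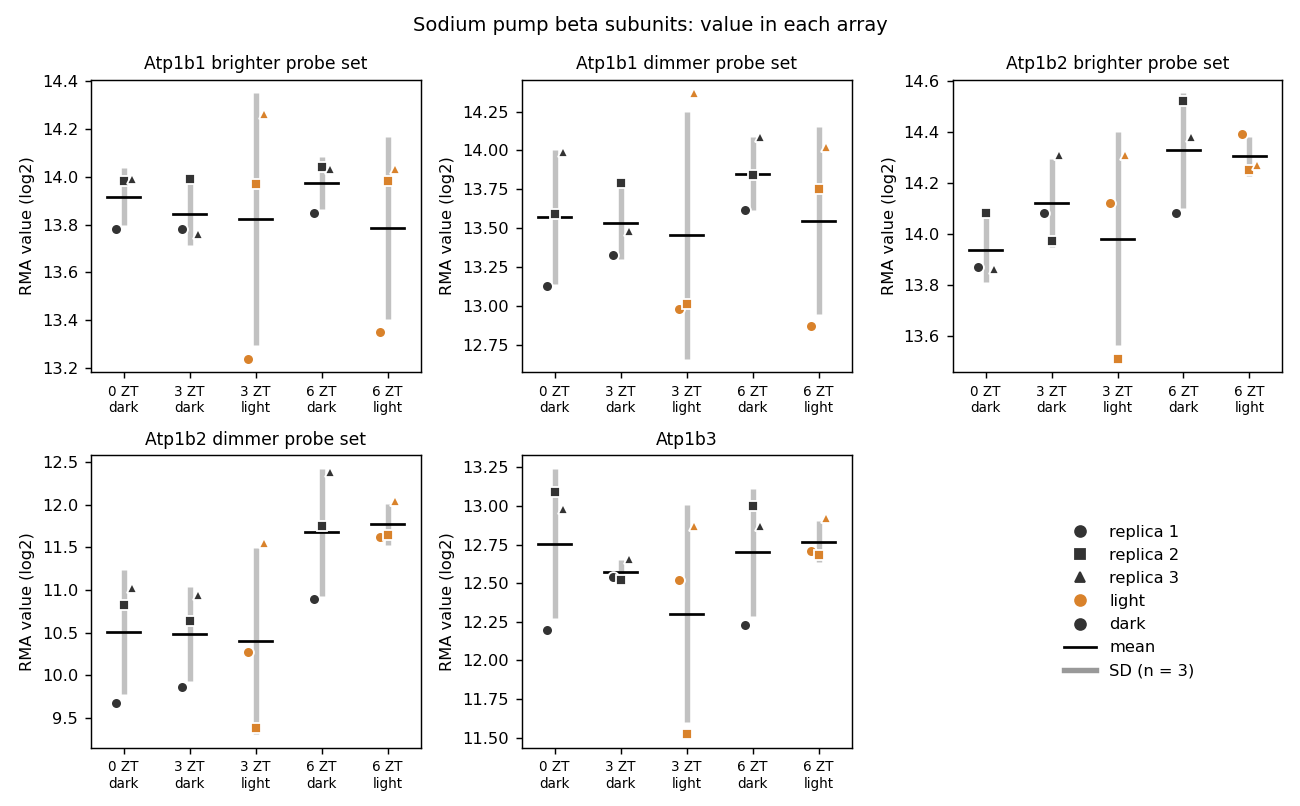
Log2 RMA value (vertical axis) of each of the 5 probe sets in each array, by condition (horizontal axis), with replicas as circles, squares and triangles, light in orange and dark in black, black bars for means and grey bars for the SD of 3 replicas. In the Atp1b2 dimmer panel the 6 ZT means, 11.68 and 11.77, stand above the 3 earlier means of 10.40 to 10.51, and the axes of the panels differ in range.

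Expressed as ratios to the 0 ZT dark array of the same replica, the Atp1b2 dimmer set gave 2.33, 1.89 and 2.58 in 6 ZT dark, a mean of 2.27 ± 0.35 (SD, n = 3). In 6 ZT light the ratios were 3.84, 1.75 and 2.03, a mean of 2.54 ± 1.14. The ratio of 3.84 was taken against 0 ZT dark replica 1, the other array with a large Actb difference. At 3 ZT the mean ratios were 0.986 ± 0.139 in dark and 1.10 ± 0.639 in light, where replica 2 was at 0.367 and the others at 1.5 and 1.44. By the rule of the methods, which asks for a ratio above 1.6 in all 3 replicas, this was the one member probe set that passed in 6 ZT dark (0.0644% of all probe sets, 20 of 31042) and in 6 ZT light (0.0709%, 22 of 31042). It was 1 of 3 probe sets on the array (0.00966%) to pass in both, and those conditions share their control arrays. No member passed above 1.6 at 3 ZT in dark (0.0% of all probe sets) or light (0.058%), and none was below 0.7 in all replicas in any condition, against 0.0161% of all probe sets in 3 ZT dark, 0.0741% in 3 ZT light, 0.287% in 6 ZT dark and 0.0709% in 6 ZT light. Counts of probe sets passing the upper threshold in light were lower here than those the paper gives for its rule. The reason for this gap was not tested. In its discussion the paper describes a promoter scan of genes up-regulated in light and names Atp1b2 among the matches. In the present fit to the rule the Atp1b2 dimmer set passed in 6 ZT dark as well as in 6 ZT light. With the threshold at a ratio of 2 the Atp1b2 dimmer set passed in neither 6 ZT condition.

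**Figure D2:**
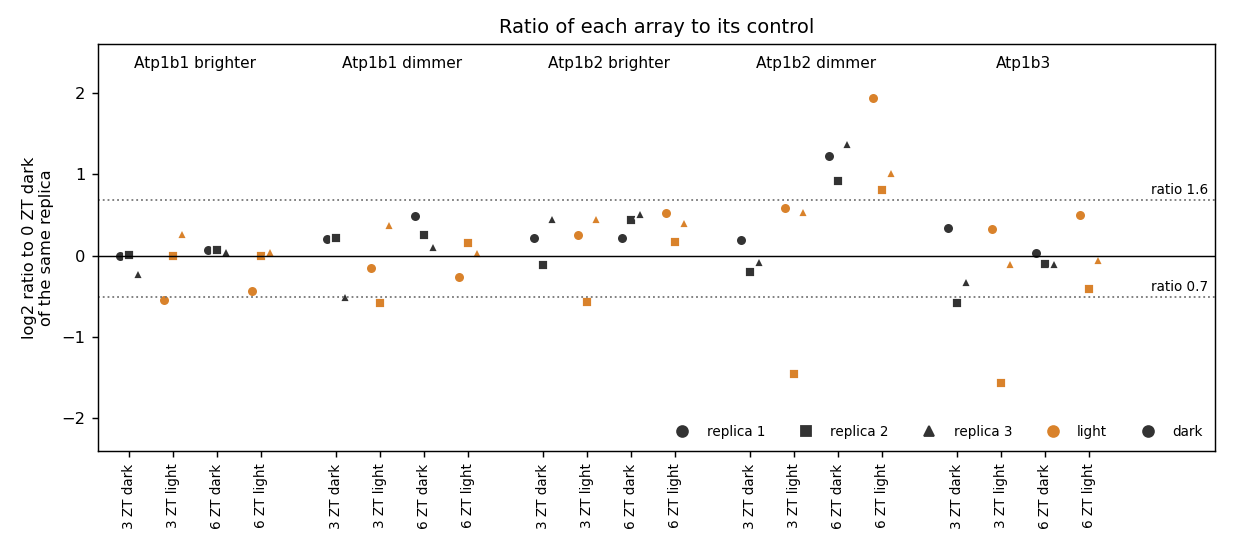
Log2 ratio of each array to the 0 ZT dark array of the same replica (vertical axis) for the 5 probe sets in the 4 later conditions (horizontal axis), with 1 symbol per replica and dotted lines at ratios of 1.6 and 0.7. The 6 points of the Atp1b2 dimmer set at 6 ZT are above the upper line, from 1.75 to 3.84 as ratios, and the points far below the lower line, 0.367 and 0.337, are 3 ZT light replica 2 in Atp1b2 dimmer and Atp1b3.

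The limma fit, with the replica number as a block, put the Atp1b2 dimmer set 1.26 (SE 0.361, 95% interval 0.46 to 2.06) higher on the log2 scale in 6 ZT light than in 0 ZT dark, with an unadjusted p of 0.00553 and an adjusted p of 0.538. In 6 ZT dark it was 1.17 higher (interval 0.37 to 1.97), with an adjusted p of 0.495. In these comparisons 0.0% of all probe sets passed the adjusted threshold, and 6.18% and 8.73% had an unadjusted p below 0.05 in light and dark. The hour was then examined without the control arrays, in comparisons chosen after the data were seen. In darkness the set was 1.20 higher at 6 ZT than at 3 ZT (adjusted p = 0.863 by limma, 0.0% of probe sets passing and 5.55% with an unadjusted p below 0.05), by 1.03, 1.11 and 1.45 in the 3 replicas. In light it was 1.37 higher (adjusted p = 0.458 by limma, 10.4% with an unadjusted p below 0.05), by 1.36, 2.25 and 0.49. With light and dark together, the 6 ZT arrays exceeded the 3 ZT arrays by 1.28 (SE 0.255, interval 0.72 to 1.85), a fold of 2.43. Its unadjusted p in limma, 0.000448, ranked 18 of 31042, and the adjusted p was 0.472 in a comparison where 0.0% of probe sets passed and 10.1% had an unadjusted p below 0.05.

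Light made no detectable difference to the Atp1b2 dimmer set at a given hour. In 6 ZT light it was 0.09 above 6 ZT dark on the log2 scale, with an interval of -0.71 to 0.89, and the replicas differed by 0.72, -0.11 and -0.35. In 3 ZT light it was 0.08 below 3 ZT dark, with an interval of -0.88 to 0.72, and the replicas differed by 0.40, -1.25 and 0.61. The light effects at the 2 hours differed by 0.17 (interval -0.96 to 1.30), a comparison in which 5.95% of probe sets had an unadjusted p below 0.05. These intervals leave room for light effects of nearly 2-fold in either direction.

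Without the 2 arrays of large Actb difference, the Atp1b2 dimmer set was 1.01 higher on the log2 scale at 6 ZT than at 3 ZT, 1.12 higher in 6 ZT light than in the control and 1.03 higher in 6 ZT dark. With the Actb difference as a covariate the same differences were 0.91, 1.00 and 0.72, with adjusted p of 0.724, 0.183 and 0.292 in limma. The Actb difference itself spanned 0.708 to 1.22 in the 6 ZT arrays and 0.785 to 2.40 in the earlier ones. Without those arrays the 3 ZT light difference from 3 ZT dark became 0.46, from 0.08 below.

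The brighter set of the same gene, Atp1b2, differed less. Its mean over all arrays, 14.13, was above that of 99.2% of probe sets, and that of the dimmer set, 10.97, above 81.0%. Whether so high a signal affected the size of its differences was not tested. The brighter set read 13.87, 14.08 and 13.86 in 0 ZT dark, 14.08, 13.97 and 14.31 in 3 ZT dark, and 14.12, 13.51 and 14.31 in 3 ZT light. The 6 ZT dark arrays read 14.08, 14.52 and 14.38, and the 6 ZT light arrays 14.39, 14.25 and 14.27. All 6 arrays at 6 ZT were above the control of their own replica, with mean ratios of 1.31 ± 0.137 in dark and 1.29 ± 0.157 in light (SD, n = 3), but not above every 3 ZT array. Ratios above 1 in all replicas were found for 15.5% of all probe sets in 6 ZT dark and 12.3% in 6 ZT light. In the limma fit the difference from control was 0.39 (interval -0.02 to 0.79, adjusted p = 0.583) in 6 ZT dark and 0.36 (interval -0.04 to 0.77, adjusted p = 0.836) in 6 ZT light. The 6 ZT arrays exceeded the 3 ZT arrays by 0.26 (interval -0.02 to 0.55), which fell to 0.14 without the 2 arrays of large Actb difference and to 0.13 with that difference as a covariate. Light against dark gave -0.14 (interval -0.55 to 0.26) at 3 ZT and -0.03 (interval -0.43 to 0.38) at 6 ZT.

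**Figure D3:**
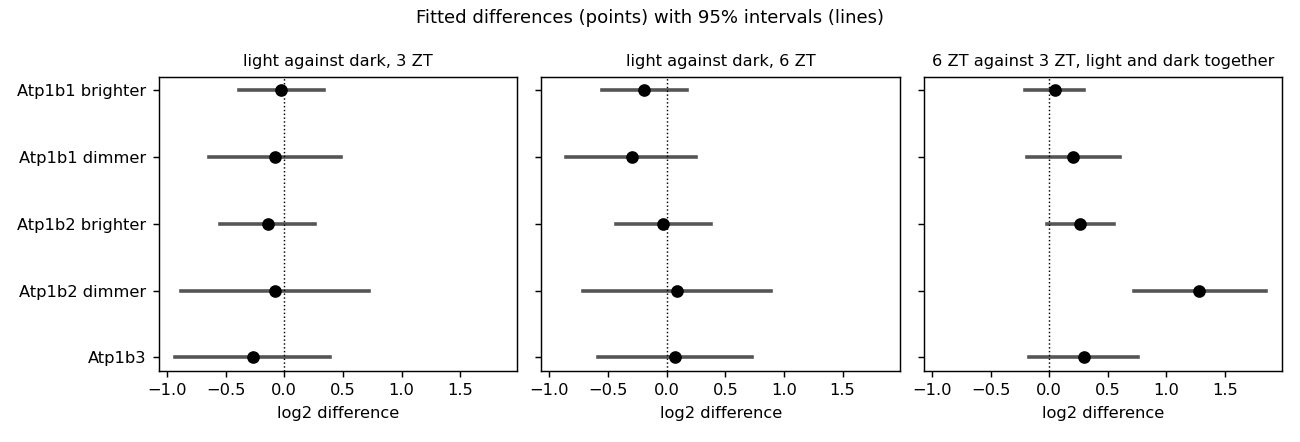
Fitted log2 differences (points) with 95% intervals (lines) for the 5 probe sets in light against dark at 3 ZT, in light against dark at 6 ZT and in both 6 ZT against both 3 ZT conditions. The 10 intervals of light against dark all include 0, and in the hour panel the Atp1b2 dimmer set stands at 1.28 with an interval of 0.72 to 1.85.

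The Atp1b2 pair was compared within arrays, by the log2 value of the brighter set minus that of the dimmer. This distance was 4.18, 3.25 and 2.85 in 0 ZT dark, 4.21, 3.33 and 3.38 in 3 ZT dark, and 3.85, 4.12 and 2.77 in 3 ZT light. It was 3.18, 2.77 and 1.99 in 6 ZT dark and 2.76, 2.61 and 2.23 in 6 ZT light. In every replica it was smaller in both 6 ZT arrays than in the 3 earlier ones, so the values of the sets lay closer together there. The condition means were 3.43 ± 0.686, 3.64 ± 0.495, 3.58 ± 0.717, 2.65 ± 0.603 and 2.53 ± 0.276 in the same order (SD, n = 3). An exact permutation test of condition within replica numbers gave p = 0.0122 (F statistic over the 5 conditions, 14400 arrangements, smallest possible p 6.94e-05), and 0.00686 without the 2 arrays of large Actb difference. The F statistic asks whether any conditions differ and does not single out 6 ZT. The pair was tested with its difference already known from these data, so this p is not independent evidence. Among the other 13 arrays, 3 ZT dark replica 1 had the highest Actb difference, 1.37, and the largest distance, 4.21. In 6 ZT dark replica 3 both were lowest, at 0.708 and 1.99, whereas 6 ZT light replica 2 paired 1.22 with 2.61. The pair test was not run with the Actb difference as a covariate, so the part of RNA quality in the distance was not tested. Without replica 1 the exact p was 0.192, without replica 2 it was 0.0417 and without replica 3 it was 0.075, and a permutation test that ignored the replica number gave p = 0.113. After centring on replica means, the Atp1b2 sets had a Pearson r of 0.843 over the 15 arrays and 0.704 over 13, without the 2 arrays of large Actb difference, and the arrays share the hour of collection and the array as sources of variation.

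**Figure D4:**
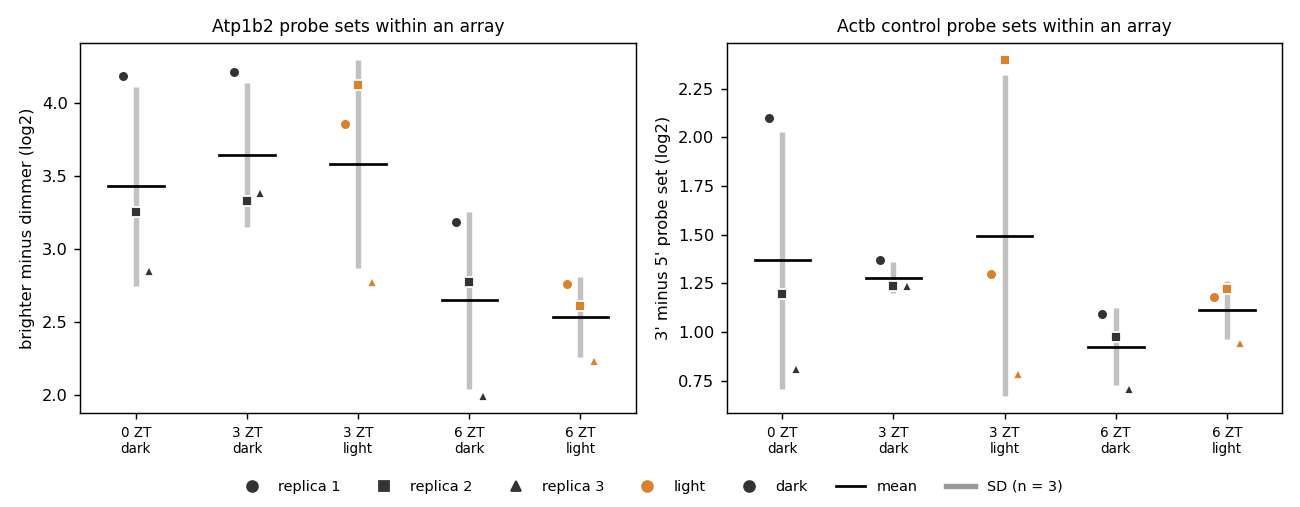
Left, log2 distance of the Atp1b2 brighter from the dimmer probe set in each array, and right, log2 difference of the 3′ from the 5′ Actb control probe set in the same arrays (vertical axes), by condition (horizontal axes), with symbols for replicas, black bars for means and grey bars for the SD of 3 replicas. The Atp1b2 distance is lowest at 6 ZT, with means of 2.65 and 2.53, and the Actb difference is highest in 0 ZT dark replica 1 and 3 ZT light replica 2, at 2.10 and 2.40.

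Atp1b1 encodes beta1, the beta subunit found in most tissues. Its brighter set read 13.78, 13.98 and 13.99 in 0 ZT dark and 13.78, 13.99 and 13.76 in 3 ZT dark. It read 13.24, 13.97 and 14.26 in 3 ZT light. At 6 ZT it read 13.85, 14.04 and 14.03 in darkness and 13.35, 13.98 and 14.03 in light. The conditions overlapped, and the lowest values were those of replica 1 in the light. Mean ratios to control lay between 0.923 ± 0.159 in 6 ZT light and 1.04 ± 0.0104 in 6 ZT dark (SD, n = 3). The fitted difference of light from dark was -0.03 (interval -0.39 to 0.34) at 3 ZT and -0.19 (interval -0.55 to 0.17, adjusted p = 0.732 by limma) at 6 ZT.

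The dimmer Atp1b1 set read 13.13, 13.59 and 13.99 in 0 ZT dark and 13.33, 13.79 and 13.48 in 3 ZT dark. It read 12.98, 13.01 and 14.37 in 3 ZT light. At 6 ZT it read 13.62, 13.84 and 14.09 in darkness and 12.87, 13.75 and 14.02 in light. Light against dark at 6 ZT was negative in all 3 replicas, at -0.75, -0.09 and -0.07, and the fitted difference of -0.30 (interval -0.86 to 0.25) had an adjusted p of 0.722 in limma, where 8.53% of probe sets had an unadjusted p below 0.05. Replica 1 carried most of this difference, which was -0.14 without 6 ZT light replica 1. Mean ratios to control were 1.00 ± 0.258 in 3 ZT dark, 0.957 ± 0.319 in 3 ZT light, 1.22 ± 0.169 in 6 ZT dark and 0.990 ± 0.143 in 6 ZT light (SD, n = 3). The hour gave 0.20 (interval -0.19 to 0.60), with 0.06 to 0.36 when 1 array was left out, 0.06 without the 2 arrays of large Actb difference and 0.03 with that difference as a covariate. The Atp1b1 sets had a Pearson r of 0.702 over the 15 arrays after centring on replica means, and 0.908 over the 13 without those arrays.

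Atp1b3 encodes beta3, a further isoform of wide distribution. Its probe set read 12.20, 13.09 and 12.98 in 0 ZT dark, 12.54, 12.52 and 12.66 in 3 ZT dark, and 12.52, 11.52 and 12.87 in 3 ZT light. It read 12.23, 13.0 and 12.87 in 6 ZT dark and 12.71, 12.68 and 12.92 in 6 ZT light. Every later condition overlapped the control, 3 ZT dark lay just below 6 ZT light without overlap, and the one low array was 3 ZT light replica 2, where the ratio to control was 0.337. The largest fitted difference from control was in 3 ZT light, at -0.45 (interval -1.11 to 0.21, adjusted p = 0.716 by limma), and without that array it was -0.00. In the same comparison 1 probe set of all passed the adjusted threshold (0.00322%), no member among them, and 7.68% had an unadjusted p below 0.05. Mean ratios in the other conditions were 0.912 ± 0.313 in 3 ZT dark, 0.962 ± 0.0527 in 6 ZT dark and 1.04 ± 0.342 in 6 ZT light (SD, n = 3). Light against dark gave -0.27 (interval -0.93 to 0.39) at 3 ZT and 0.07 (interval -0.59 to 0.73) at 6 ZT. In 3 ZT light against 3 ZT dark 0.00322% of probe sets passed the adjusted threshold and 4.59% had an unadjusted p below 0.05.

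After centring on replica means, Atp1b3 correlated with the dimmer and brighter Atp1b2 sets with a Pearson r of 0.65 and 0.71 over 15 arrays, and with the dimmer and brighter Atp1b1 sets with 0.445 and -0.0906. Without the 2 arrays of large Actb difference the same 4 values were 0.231, 0.239, -0.199 and -0.143 over 13 arrays, so the correlations of Atp1b3 with Atp1b2 rested largely on that pair of arrays. In 3 ZT light replica 2 both Atp1b2 sets, the Atp1b1 dimmer set and Atp1b3 were at the lowest value of their replica number. The same measure, over the 20826 probe sets with 1 symbol, named the genes whose pattern was most like each member. For the Atp1b2 dimmer set these were Tcf12, a transcription factor of the basic helix-loop-helix class (r = 0.955), Synrg, a partner of the AP-1 clathrin adaptor (0.938), and Patl1, a factor of mRNA decay (0.936). Their own log2 differences of 6 ZT from 3 ZT were 0.62, 0.65 and 0.45. These genes were picked for their likeness to the set over the same arrays, so their differences are not independent evidence. Each r given here is likewise high by selection from 20826 probe sets. For the Atp1b2 brighter set the nearest genes were Ube2h, a ubiquitin-conjugating enzyme (0.953), Mta2, a subunit of a chromatin deacetylase complex (0.949), and Rcc2 (0.943). Atp1b3 was most like Akr1b1, aldose reductase (0.963), Efemp2, an extracellular matrix protein (0.956), and Ercc2, a helicase of DNA repair and transcription (0.954). The Atp1b1 dimmer set was most like Vsnl1, a neuronal calcium sensor (0.97), Dok5 (0.963) and Tmeff1 (0.963), and the brighter set was most like Pcnx2 (0.974), Lhfpl6 (0.959) and Kcna1, a voltage-gated potassium channel (0.958). None of the 5 sets had another member among these 3 nearest. Over the 13 arrays the r of these 15 genes with their member ran from 0.795 (Efemp2) to 0.979 (Pcnx2).

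Of the other parts of the pump, 1 of 4 catalytic alpha genes was analysed here. Atp1a4, the alpha4 isoform known from sperm, had means of 4.85 to 4.87 in all conditions, and its lowest unadjusted p in limma was 0.787. The other alpha genes were not analysed here. All 7 FXYD genes listed had a probe set and none passed the adjusted threshold in any comparison. In light against dark at 3 ZT the fitted difference was negative for all 7, the median being -0.13 (0.00 over all probe sets), and 1 of them had an unadjusted p below 0.05, against 4.59% of all probe sets. Without the 2 arrays of large Actb difference 5 of the 7 were lower, with a median of -0.09. In 3 ZT light against control 6 of the 7 were lower (median -0.27) and 3 had an unadjusted p below 0.05, against 7.68% of all probe sets, and without those arrays 6 were lower (median -0.22) and 2 had such a p. Fxyd3, a regulator known from epithelia, was 0.43 (SE 0.129) lower in 3 ZT light than in control (adjusted p = 0.56 by limma), and Fxyd1, phospholemman, was 0.59 (SE 0.224) lower (adjusted p = 0.625 by limma). Fxyd1 read 11.27, 10.32 and 11.65 in 3 ZT light against 11.32, 11.63 and 12.04 in 0 ZT dark, so it too was lowest in 3 ZT light replica 2. Without those arrays Fxyd3 differed from control by -0.56 and Fxyd1 by -0.47. The lower levels were not confined to 3 ZT light in that fit, where every difference from control rested on the same control arrays, replicas 2 and 3. In darkness Fxyd3 differed from control by -0.29 at 3 ZT and -0.40 at 6 ZT, and Fxyd1 by -0.29 and -0.33. After 6 hours of light Fxyd3 differed by -0.32 and Fxyd1 by -0.50. Fxyd7, a regulator known from neurons, read 10.02, 9.89 and 10.18 in 6 ZT light and 10.85, 10.30 and 10.63 in 6 ZT dark. It was lower in light in all 3 replicas, and the fitted difference was -0.56 (SE 0.232, adjusted p = 0.564 by limma). From 3 ZT to 6 ZT, 6 of the 7 FXYD genes were higher and 1 lower, with a median of 0.09 against -0.01 over all probe sets, and 4 were higher and 3 lower without the 2 arrays of large Actb difference.

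Among 9 genes of proteins related to or bound by the pump 8 had a probe set, and the lowest unadjusted p was that of Atp4a, the catalytic subunit of the gastric proton pump, which was 0.26 higher in 6 ZT light than in 3 ZT light (adjusted p = 0.476 by limma). Of 18 genes of sodium, potassium and calcium transport 15 had a probe set, of which 8 were higher and 7 lower at 6 ZT than at 3 ZT, with a median of 0.02. The lowest p there was that of Kcnj10, the inward rectifier potassium channel of Müller glia, which was 0.25 (SE 0.0677) higher in 6 ZT light than in control (adjusted p = 0.476 by limma). No gene of either list passed the adjusted threshold.

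Levels of markers of retinal and neighbouring cell types are given for the same comparisons, and none of these genes passed the adjusted threshold. From 3 ZT to 6 ZT all 9 Müller glia markers were higher, with a median of 0.14 against -0.01 over all probe sets, and 3 of the 9 had an unadjusted p below 0.05, against 10.1% of all probe sets. Without the 2 arrays of large Actb difference 8 of the 9 were higher and 2 had such a p. Their mean level per array spanned 11.93 to 12.44 in the 0 and 3 ZT arrays and 11.99 to 12.48 in the 6 ZT arrays. All 5 bipolar cell markers were higher (median 0.28) and 2 of them had an unadjusted p below 0.05. Their mean was 10.47 to 10.86 in 3 ZT light and 11.11 to 11.34 in 3 ZT dark, against 10.72 to 11.74 over the 6 ZT arrays. In light alone all 5 rose from 3 ZT to 6 ZT (median 0.58), but in darkness alone 2 were higher and 3 lower (median -0.06). At 3 ZT the median difference of light from dark was -0.75, and it was negative for all 5. From 3 ZT to 6 ZT, with light and dark together, 3 of 7 rod markers were higher and 4 lower (median -0.02). Of 6 blood and vessel markers 2 were higher and 4 lower (median -0.01). Of 10 amacrine and ganglion cell markers 6 were higher and 4 lower (median 0.06). In darkness alone all 10 of the latter were higher (median 0.26), and in light alone 3 were higher and 7 lower (median -0.04). Lens markers had a mean of 11.54 to 12.37 in 6 ZT dark, 8.58 to 11.41 in 6 ZT light and 10.02 to 12.11 in the other arrays, all 10 of them being above the control in 6 ZT dark and below 6 ZT dark in 6 ZT light. Pigment epithelium markers ran the other way, with 10.63 to 11.44 in 6 ZT dark and 11.38 to 12.34 in 6 ZT light. Across replica numbers the 6 ZT dark and 6 ZT light ranges overlapped for the pigment epithelium markers and did not for the lens markers. Within every replica number the pigment epithelium mean was higher in 6 ZT light than in 6 ZT dark, and the lens mean was lower. All 8 pigment epithelium markers were higher in light (median 0.69), and 7 had an unadjusted p below 0.05 in limma. Of the 10 lens markers (median -1.64) 5 had such a p, against 8.53% of all probe sets. At 3 ZT the lens difference had the opposite sign, since all 10 lens markers were higher in light than in dark (median 0.50). That median was 1.14 without the 2 arrays of large Actb difference. The part of these cell types in the results for the beta subunits was not tested.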

How the data were processed

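Retinal RNA was hybridised to Affymetrix RAT230_2 arrays. The deposited values are log2 signals, which the authors computed from the scanned images with the RMA algorithm (background correction, normalization and probe set summary); the software was not given in the sources used here. They were used as deposited. Of 31099 probe sets, 57 controls were left out, and limma 3.58.1 in R 4.3.3 was fitted to the remaining 31042 over all 15 arrays, with condition and replica number (a block) as terms and Benjamini-Hochberg adjustment within each comparison (threshold 0.05). The methods take ratios within a replica number, which is the source of the pairing. Deviations from condition means correlated at 0.241 to 0.797 between arrays of the same number, higher than with any other number in 30 of 30 cases. Ratios to control used the thresholds of the methods, 1.6 and 0.7. The Atp1b2 pair was tested with an exact permutation test. Gene names come from the platform annotation, and coordinates, promoters and names of members from RefSeq (GRCr8). A precision limit is set by the number of arrays, since arrays carry no read depth. The named genes were the members, the alpha and FXYD genes with a probe set, for each gene list the gene of lowest p (brightest probe set per gene), and the 3 probe sets of highest correlation with each member. The members, the gene lists and the tests were chosen with earlier results of these data known. Alternatives covered the replica block, normalization, a filter on dim probe sets, array weights, the arrays fitted, an intensity trend, the ratio threshold, RNA quality and leaving out each array.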

Additional observations from a re-analysis of the deposited data

How the results depend on the processing

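No member passed the adjusted threshold under any of the 25 alternatives in 10 comparisons, and the lowest adjusted p was 0.0503, for the Atp1b2 dimmer set in 6 ZT light against 0 ZT dark with array quality weights. The weights ran from 0.1596 to 7.4468, and with them 676 probe sets passed in that comparison and 2311 in 6 ZT light against 6 ZT dark, against 0 in both without weights; without 3 ZT light replicate 2, 38 passed in the former. The Atp1b2 dimmer set was higher at 6 ZT than at 3 ZT in all alternatives (0.91 to 1.28, and 1.00 to 1.45 with 1 array left out). Signs were followed in the comparisons with control, in light against dark at each hour and in both 6 ZT against both 3 ZT conditions. Of these 875 member values 64 changed sign.

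Without the replicate block the permutation test of the Atp1b2 pair gave p = 0.113, the dimmer set no longer passed the ratio of 1.6 in 6 ZT dark (0 member probe sets), and its adjusted p at 6 ZT against 3 ZT was 1.0 in limma. The pair test ranged from 0.0417 to 0.192 (exact permutation) when 1 replicate number was left out. With a ratio of 2, 0 member probe sets passed in either 6 ZT condition.

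With array quality weights, 3 ZT light against 0 ZT dark turned to 0.02 (Atp1b1 dimmer) and 0.22 (Atp1b2 dimmer), 6 ZT light against 0 ZT dark to 0.13 (Atp1b1 dimmer) and -0.15 (Atp1b3), 3 ZT light against 3 ZT dark to 0.07, 0.38, 0.06 and 0.17 (Atp1b1 dimmer, Atp1b2 dimmer and brighter, Atp1b3), and 6 ZT light against 6 ZT dark to -0.11 (Atp1b2 dimmer). Without the 2 arrays of largest Actb difference, 3 ZT light against 0 ZT dark turned to 0.18 (Atp1b1 dimmer) and 0.29 (Atp1b2 dimmer), 6 ZT light against 0 ZT dark to -0.17 (Atp1b3), 3 ZT dark against 0 ZT dark to 0.01 (Atp1b1 brighter), and 3 ZT light against 3 ZT dark to 0.20, 0.46, 0.11 and 0.16 (Atp1b1 dimmer, Atp1b2 dimmer and brighter, Atp1b3). With the Actb difference as a covariate, 3 ZT light against 0 ZT dark turned to 0.02 (Atp1b2 dimmer), 6 ZT light against 0 ZT dark to -0.20 (Atp1b3), 3 ZT light against 3 ZT dark to 0.02 (Atp1b1 dimmer) and 0.13 (Atp1b2 dimmer), 6 ZT light against 6 ZT dark to 0.04 (Atp1b2 brighter) and 6 ZT against 3 ZT to -0.01 (Atp1b3). Median centring turned Atp1b3 in 6 ZT light against 0 ZT dark to -0.01. Quantile normalization turned the Atp1b2 dimmer set in 3 ZT dark against 0 ZT dark to 0.00 and, with the same value as cyclic loess, the Atp1b1 brighter set in 3 ZT light against 3 ZT dark to 0.06. The cause was not tested in any of these.

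Leaving out 1 array turned the sign of these differences (range over the 15 fits). In 3 ZT light against 0 ZT dark the range was -0.44 to 0.16 (Atp1b1 dimmer), -0.28 to 0.10 (Atp1b1 brighter), -0.44 to 0.45 (Atp1b2 dimmer) and -0.11 to 0.29 (Atp1b2 brighter). In 6 ZT light against 0 ZT dark the range was -0.15 to 0.14 (Atp1b1 dimmer) and -0.22 to 0.26 (Atp1b3). In 3 ZT dark against 0 ZT dark the range was -0.20 to 0.25 (Atp1b1 dimmer), -0.20 to 0.07 (Atp1b1 brighter), -0.24 to 0.25 (Atp1b2 dimmer) and -0.42 to 0.06 (Atp1b3). In 6 ZT dark against 0 ZT dark the range was -0.03 to 0.14 (Atp1b1 brighter) and -0.29 to 0.19 (Atp1b3). In 3 ZT light against 3 ZT dark the range was -0.40 to 0.20 (Atp1b1 dimmer), -0.21 to 0.17 (Atp1b1 brighter), -0.41 to 0.48 (Atp1b2 dimmer), -0.29 to 0.11 (Atp1b2 brighter) and -0.51 to 0.18 (Atp1b3). In 6 ZT light against 6 ZT dark the range was -0.13 to 0.30 (Atp1b2 dimmer), -0.16 to 0.14 (Atp1b2 brighter) and -0.11 to 0.29 (Atp1b3). In 6 ZT against 3 ZT the range was -0.05 to 0.14 (Atp1b1 brighter).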

Other observations

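The genes named here were picked as those of lowest unadjusted p in their marker lists over the 10 comparisons. None of them passed the adjusted threshold. Pcp2, a protein of ON bipolar cells, was 0.96 (SE 0.176) lower on the log2 scale in 3 ZT light than in 0 ZT dark (adjusted p = 0.266 by limma), and differed by -0.71 without the 2 arrays of large Actb difference. Lrat, an enzyme of the visual cycle in the pigment epithelium, was 1.43 (SE 0.307) higher in 6 ZT light than in 6 ZT dark, and Bfsp1, a filament protein of the lens, differed by -1.56 (SE 0.311) there, each with an adjusted p of 0.44 in limma. Th, tyrosine hydroxylase, the marker of dopaminergic amacrine cells, was 0.45 (SE 0.129) higher at 6 ZT than at 3 ZT (adjusted p = 0.472 by limma), and Kdr, a receptor of vessels, was 0.30 (SE 0.118) higher. The rod phosphodiesterase subunit Pde6b was 0.18 (SE 0.0579) higher in 6 ZT light than in 0 ZT dark (adjusted p = 0.584 by limma). The cell types behind these differences were not identified.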
